A study of Homo sapiens with 6 samples.

Results

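The 48 genes described here encode the digestive enzymes of the lysosome, the small proteins that help those enzymes, and the proteins of the lysosomal membrane. They were taken from a list of symbols, and each symbol matched 1 of the 61533 gene rows of the deposited count table. The set holds 12 cathepsins and the peptidase TPP1, 11 glycosidases, 5 sulfatases, 4 lipid hydrolases, 4 soluble cofactors and 11 membrane proteins. The list was drawn up with the comparison below already known, as a set that mostly rose, so all values of that comparison are given for these genes as a description. No count or median over the set is offered as evidence for the set.

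The cells were MDA-MB-231, a widely used human line from a triple-negative breast tumour, with a mesenchymal-like form. An empty vector control (genotype labelled WT, 3 libraries) was compared with cells carrying shKDM2B, a short hairpin RNA (genotype labelled KDM2B knockdown, 3 libraries). KDM2B is a histone demethylase that joins the Polycomb complex ncPRC1.1, and its CXXC zinc finger binds unmethylated CpG in DNA. Both groups grew in the same serum-containing medium, supplemented with nonessential amino acids and glutamine, and RNA was taken before confluence and depleted of ribosomal RNA. The knockdown columns carry a single unexplained hairpin code, so an effect of that hairpin on other transcripts and the loss of KDM2B cannot be told apart. The labels call the replicates biological without saying whether they were separate cultures, and the tests measure only the spread between these libraries.

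Lysosomes break down proteins, glycans and lipids delivered by endocytosis and autophagy, and they export the products, amino acids among them. Most soluble hydrolases are tagged with mannose 6-phosphate in the Golgi and carried onward by receptors, while a proton pump, the V-ATPase, keeps the lumen acid enough for them to work. Many of their genes carry a CLEAR element, a palindrome with the core CACGTG, which is bound by the factors TFEB, TFE3 and MITF; the same core is an E-box that MYC binds.

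The 6 libraries held 10190149 to 15737951 counts each, and levels are given as CPM, counts scaled to library size. Where a gene has a count of 0, up to 3 counts are allowed by that value, or 0.191 to 0.294 CPM, for counting error only. KDM2B had 589, 714 and 902 counts in the empty vector libraries and 153, 166 and 224 in the shKDM2B libraries, so the labels held. Of the genes that mark the line, VIM, CD44, EGFR, CAV1 and AXL were at 370.8 CPM or more in every library, VIM being lower in shKDM2B cells (log2 fold change -1.68). ESR1, PGR and CDH1 had at most 4 counts in any library, and ERBB2 and EPCAM were detected and did not pass the test. Mitochondrially encoded genes took 0.0767 to 0.151% of counts in the empty vector libraries and 0.196 to 0.476% in the shKDM2B libraries, and MALAT1 took 0.0958 to 0.107% and 0.246 to 0.311%. The part of these differences in library make-up in the values below was not tested.

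Of the 48 genes, 47 passed the low-count filter. Each was tested in a fit over all 14071 genes that passed (edgeR's quasi-likelihood test, Benjamini-Hochberg adjustment), with calls made at an adjusted p under 0.05. In shKDM2B cells 36 of the 47 were higher, 5 were lower and 6 did not pass. Over all tested genes, 30.5% were called higher, 30.4% lower and 60.9% either way, and since the list was made with this contrast in view, nothing is read from the gap. The median log2 fold change was 0.72 over the 47 genes and -0.0067 over all genes tested. At least a 2-fold rise was called for 16 of the 47 (7.14% of all tested genes), and at least a 2-fold fall for 0 (4.85% of all tested genes), the lowest log2 fold change being -0.81 in CTSZ. The groups did not overlap for 42 of the 47 (65.5% of all tested genes). ARSA was the only one of the 47 that fell under the filter's level of 0.912 CPM in an empty vector library. CLN3, a membrane protein mutated in juvenile Batten disease, was the gene not tested. It had 1, 3 and 3 counts in the empty vector libraries and 4, 4 and 4 in the shKDM2B libraries. In GENCODE 29, 25.2% of its exon length is shared with another annotated gene on the same strand.

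Summed over the 48 genes, the level was 3791, 3981 and 3819 CPM in the empty vector libraries and 6745, 6791 and 6881 CPM in the shKDM2B libraries, a ratio of means of 1.76. Every shKDM2B library therefore lay above every empty vector library. PSAP, the precursor of the saposins that present sphingolipids to their hydrolases, made up 10.8 to 13.3% of this sum in empty vector and 18.5 to 19.3% in shKDM2B libraries. Without PSAP the sums were 3411 ± 35.9 and 5523 ± 85.0 CPM (SD, n = 3 each), a ratio of 1.62. In bulk RNA, more cells of a kind and more RNA per cell cannot be told apart.

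The sums and the PSAP share above were not scaled for length. Other levels of different genes were compared per length, as CPM per kilobase of the gene's principal transcript in GENCODE 29. On that scale the most abundant empty vector transcripts were CTSC (223.5), LAPTM4B (193.5), PSAP (157.6), GRN (85.5) and LAMP1 (74.1). The length is uncertain for CTSC and LAPTM4B, whose levels were 70.1 and 55.8 per kilobase when the longest CCDS transcript was used. With the longest CCDS transcript PSAP, at 157.6, came first in empty vector too. In shKDM2B cells PSAP came first with either length, at 446.8 CPM per kilobase with the principal transcript. At the low end of the tested genes, ARSA, CTSS, CTSF and CTSV had levels of 0.505, 0.602, 0.635 and 0.848 CPM per kilobase in empty vector. Both calls, higher and lower, were found among the abundant transcripts of the set.

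**Figure D1:**
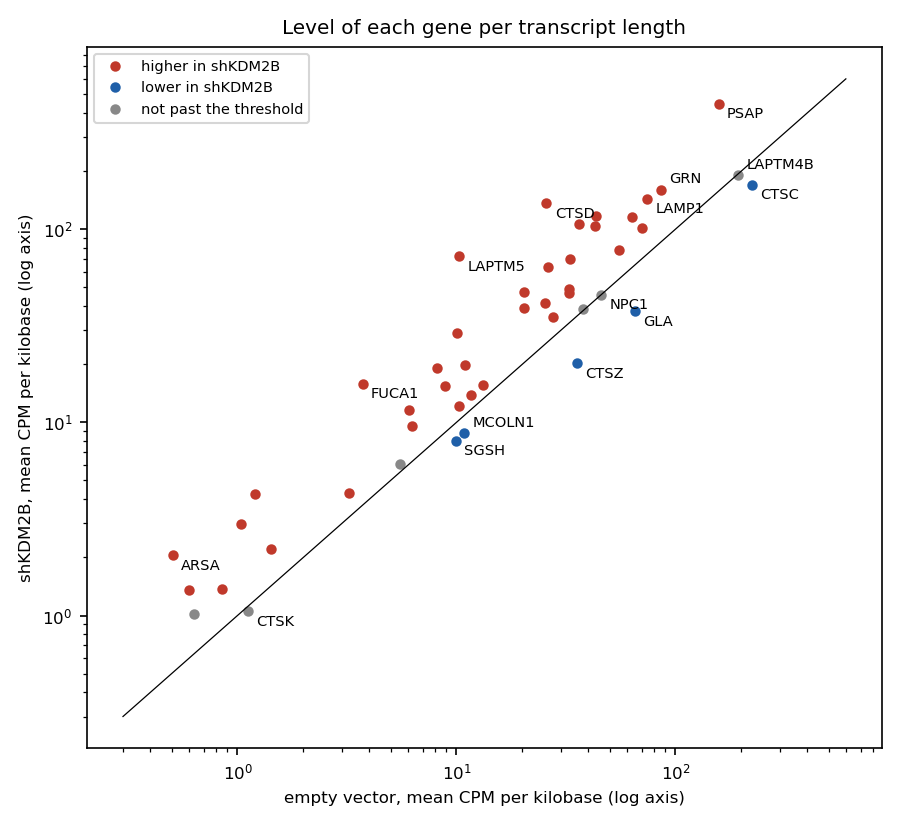
Mean level of each of the 47 tested genes per kilobase of principal transcript, empty vector on the x axis and shKDM2B on the y axis (CPM per kilobase, log axes, n = 3 libraries each), coloured by call; the line marks equal levels. PSAP lies highest in shKDM2B at 446.8, and CTSC, GLA, CTSZ, SGSH and MCOLN1 lie under the line.

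RefSeq promoter windows of 300 bases (250 before and 50 after the gene's start, build GRCh38.p14) were at hand for 35 of the 48 genes. The full CLEAR palindrome of 10 bases, spelled by the capitals of the first sequence shown here, was found in 3 of the 35 windows, its inner 8 bases in 6, and the core CACGTG in 10. Each of these words reads the same on both strands, and each longer word contains the shorter ones. Over 10408 tested genes with a window the shares were 0.759%, 1.95% and 10.0%. The 3 genes with the full palindrome had different calls: GAA, acid alpha-glucosidase, was higher, GALNS, a sulfatase, did not pass, and MCOLN1, the lysosomal calcium channel TRPML1, was lower. These 26-base windows are shown because genes with the same word moved differently, with the match in capitals. CTSA and LAMP1, which were higher, hold the shorter form. LAMP1 holds it again 1 base before the start, in a window that is not shown.

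GAA, 76 bases before the start: gaggccgcGTCACGTGACccaccgcg
GAA, 31 bases before the start: tcccgccgGTCACGTGACccgcctct
GALNS, 174 bases before the start: ggcaccgcGTCACGTGACccgccgct
MCOLN1, 14 bases before the start: gctaccggGTCACGTGACcgaggcac
MCOLN1, 41 bases before the start: cagaggcggTCACGTGAggggctctg
CTSA, 25 bases before the start: cgccggagtTCACGTGActcgtacac
LAMP1, 28 bases before the start: cccgcgggaTCACGTGAcgcccgggc

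Distances are counted from the first base of CACGTG to the RefSeq start, which can differ from the GENCODE start. Each sequence is written 5′ to 3′ on the gene's strand. In the order shown, the windows lie at chr17:80101495-80101520 and chr17:80101540-80101565 (plus strand), chr16:88857106-88857131 (minus strand), chr19:7522600-7522625, chr19:7522573-7522598, chr20:45891300-45891325 and chr13:113297201-113297226 (all plus strand). The core alone was found in CTSD, CTSF, NEU1 and CD63, and CLN3 held the shorter form. By call, CACGTG was present in 6 of 26 genes that were higher, 1 of 4 that were lower and 2 of 4 that did not pass. CpG content varied widely within the set. The median was 31 CG dinucleotides per window over the 35 genes and 26 over the 10408 tested genes. LAPTM5, the gene with the largest rise of the set, had 5 and TPP1 had 7, the lowest counts, while GAA had 53, the highest. These matches and counts are descriptions of the sequence and not of binding.

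Among the peptidases, 8 of 13 were higher, 2 lower and 3 did not pass, and log2 fold changes ranged from -0.81 to 2.40 (median 0.72). Over all tested genes 30.5% were higher and 30.4% lower. Nothing is read from the counts of this class or the classes below, since the list was drawn up with the comparison known. CTSD, the aspartic protease of the lysosome (ENSG00000117984.15, chr11:1752752-1764573, minus strand, GRCh38), led the class. Its levels were 52.5, 58.0 and 53.6 CPM in the empty vector libraries and 282.4, 296.1 and 288.8 CPM in the shKDM2B libraries. No library of either group came near the other group, and the log2 fold change was 2.40 (SE 0.06), or 5.29-fold. In GENCODE 29, 41.7% of the CTSD exon length is shared with a second annotated gene on the same strand, which itself had 2 to 15 counts. The sources used here do not give how reads in the shared stretch were counted.

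CTSA is a serine carboxypeptidase that also shields the glycosidases GLB1 and NEU1 from breakdown. It had 101.1, 82.8 and 96.8 CPM against 246.5, 255.7 and 251.9 CPM (log2 fold change 1.43, SE 0.07). Of its exon length, 28.5% is shared with genes on the opposite strand, PLTP and NEURL2 among them, and the sources used here do not give the strand setting of the counting. CTSB, a broadly expressed cysteine protease, had 166.7, 169.9 and 164.0 CPM against 399.6, 402.3 and 411.9 CPM (log2 fold change 1.28, SE 0.05). In both genes the groups were separated by more than the range within either. TPP1, which removes tripeptides from the ends of proteins, had 28.3, 27.6 and 31.2 CPM against 67.5, 66.5 and 71.2 CPM (2.35-fold). It shares 11.55% of its exon length with another annotated gene on its strand, which had 0 counts in every library. Reads in the shared stretch could have been left uncounted for both genes, so the 0 counts do not settle the point.

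Of the 5 cathepsins under 5 CPM in empty vector, CTSO, CTSS and CTSV rose, and CTSF and CTSK did not pass. CTSO rose from 3.54 ± 0.422 to 12.6 ± 1.54 CPM, and CTSS, the cathepsin that trims the invariant chain in antigen-presenting cells, rose from 2.47 ± 0.252 to 5.60 ± 0.154 CPM (SD, n = 3 each). CTSV, a close paralog of CTSL, had a log2 fold change of 0.72 (SE 0.20). CTSH, an aminopeptidase, rose 1.19-fold, but the call was lost with DESeq2 (adjusted p = 0.0531) and, in edgeR's fit, without empty vector replicate 1, shKDM2B replicate 1 or shKDM2B replicate 3 (adjusted p = 0.076, 0.0522 and 0.0697).

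Not all cathepsins shared the rise. CTSC, a dipeptidyl peptidase that activates serine proteases of immune cells, was at 426.2, 426.7 and 435.4 CPM in empty vector and at 319.6, 326.3 and 331.8 CPM in shKDM2B libraries (log2 fold change -0.40, SE 0.04). CTSZ, a carboxypeptidase, was at 54.2, 58.5 and 47.1 CPM and at 31.8, 30.0 and 29.2 CPM (log2 fold change -0.81, SE 0.08). For both, every shKDM2B library lay under every empty vector library. CTSL, an endopeptidase of the same family, had 77.2, 91.5 and 78.4 CPM against 84.3, 87.6 and 81.5 CPM. Its groups overlapped, empty vector replicate 2 being the highest of the 6, and without that library CTSL passed the threshold with a log2 fold change of 0.11 (edgeR adjusted p = 0.0414). CTSK, the main collagen-degrading protease of osteoclasts, had 15 to 26 counts in every library and did not pass (log2 fold change -0.11, SE 0.27). CTSF did not pass either (0.66, SE 0.29), though its groups did not overlap, and without shKDM2B replicate 3 it did (0.82, edgeR adjusted p = 0.0475).

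The mix of cathepsin transcripts changed accordingly. As a share of the summed level per kilobase over the 12 cathepsins, CTSC went from 52.7 ± 0.977% in empty vector to 27.9 ± 0.318% in shKDM2B libraries, and CTSD from 6.08 ± 0.275% to 22.4 ± 0.269% (SD, n = 3 each). CTSA and CTSB went from 10.3 ± 1.13% to 19.2 ± 0.113% and from 10.2 ± 0.0971% to 17.2 ± 0.250%. CTSL and CTSZ went from 8.92 to 6.38% and from 8.39 to 3.34%. These shares rest on the transcript lengths: with the longest CCDS transcript, chosen after the data were seen, CTSC went from 25.9 to 10.8% and CTSD from 9.52 to 27.7%. The direction was the same with both lengths, but this is no check, since a length does not alter a gene's own fold change. CTSD, with the largest log2 fold change of the 12 cathepsins (2.40), gains share whatever lengths are used.

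**Figure D2:**
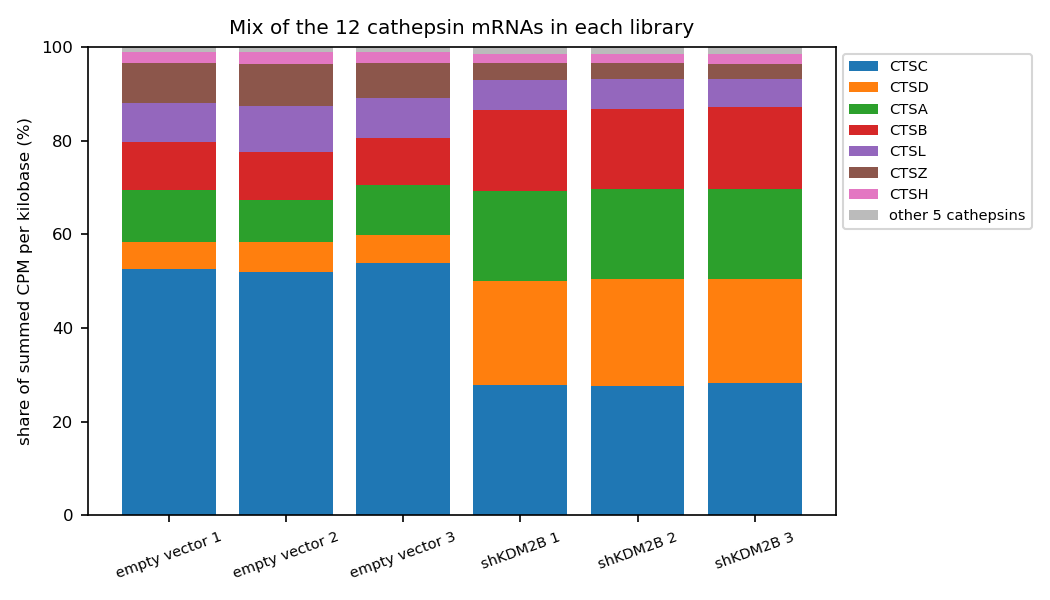
Share of each cathepsin in the summed level per kilobase over the 12 cathepsins (y axis, %), 1 bar per library. CTSC takes 52.7% on average in the 3 empty vector libraries and 27.9% in the 3 shKDM2B libraries, while CTSD goes from 6.08 to 22.4%.

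Glycosidases cleave sugars from glycoproteins and glycolipids. Of these, 10 of 11 were higher and 1 lower (median 0.86 on the log2 scale), beside 30.5% and 30.4% of all tested genes. FUCA1, the alpha-L-fucosidase, had 7.49, 8.67 and 6.73 CPM in empty vector and 32.7, 32.1 and 32.6 CPM in shKDM2B libraries. Its shKDM2B libraries were nearly equal and lay well above the control (log2 fold change 2.10, SE 0.10; 4.28-fold). GAA, which digests glycogen, had 35.3, 35.9 and 38.4 CPM against 102.0, 103.9 and 107.8 CPM (2.86-fold; ENSG00000171298.13, chr17:80101556-80119879, plus strand). IDUA, which acts on dermatan and heparan sulfate, rose 2.89-fold from 19, 33 and 24 counts to 69, 76 and 91 counts. IDUA shares 13.3% of its exon length with SLC26A1 on the opposite strand, with the same limit as for CTSA. NEU1, the sialidase that forms a complex with CTSA and GLB1, rose from 67.7 ± 8.17 to 143.5 ± 2.12 CPM, and GLB1, the beta-galactosidase, from 85.5 ± 2.96 to 123.0 ± 7.20 CPM (SD, n = 3 each).

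NAGLU, GUSB, MAN2B1, HEXA and MANBA, which act on heparan sulfate, glucuronides, mannosides and gangliosides, rose by 0.93, 0.86, 0.81, 0.60 and 0.42 on the log2 scale. GUSB has pseudogene copies, and its counts are uncertain to that extent. MAN2B1 and NAGLU share 21.2% and 12.6% of their exon length with other annotated genes on their strand. Those genes had 0 counts in every library, with the same limit as for TPP1. GLA, the alpha-galactosidase A that is deficient in Fabry disease, was the exception (ENSG00000102393.14, chrX:101397803-101408012, minus strand). It had 84.0, 85.8 and 88.4 CPM in empty vector and 53.6, 44.1 and 50.9 CPM in shKDM2B libraries (log2 fold change -0.80, SE 0.07; 1.74-fold lower). All shKDM2B libraries lay under all controls.

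Sulfatases remove sulfate groups from glycosaminoglycans and sulfolipids. Of the 5, 3 were higher, 1 was lower and 1 did not pass (median 0.25 on the log2 scale). The shares over all tested genes were 30.5% higher and 30.4% lower. ARSA, which acts on sulfatide, had 13, 11 and 11 counts in empty vector and 41, 49 and 66 counts in shKDM2B libraries. The fold of 4.11 (log2 fold change 2.04, SE 0.23) rests on few control counts. IDS and ARSB rose by 0.63 and 0.25, and IDS, which has a pseudogene copy, shares 17.4% of its exon length with other annotated genes on its strand. SGSH, the heparan sulfamidase, had 274, 308 and 373 counts in empty vector and 226, 256 and 348 counts in shKDM2B libraries, or 27.7 ± 1.46 and 22.4 ± 0.349 CPM (SD, n = 3 each; log2 fold change -0.30, SE 0.08). On the CPM scale its groups did not overlap, although the step was small. GALNS did not pass (0.14, SE 0.11), and its groups overlapped.

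All 4 lipid hydrolases were higher (median 0.73 on the log2 scale), beside 30.5% of all tested genes. ASAH1, the acid ceramidase, rose 2.45-fold from 65.7 ± 2.11 to 160.6 ± 2.03 CPM, and SMPD1, the acid sphingomyelinase, rose 1.92-fold from 44.3 ± 0.314 to 85.1 ± 3.41 CPM (SD, n = 3 each). PPT1, which removes palmitate from proteins, and LIPA, the acid lipase for cholesteryl esters, rose 1.43-fold and 1.27-fold. PPT1 shares 23.4% of its exon length with CAP1 on the opposite strand.

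The 4 soluble cofactors were also all higher (median 1.205 on the log2 scale), again beside 30.5% of all tested genes. PSAP (ENSG00000197746.15, chr10:71816298-71851375, minus strand) had 412.5, 531.2 and 414.0 CPM in empty vector and 1304, 1275 and 1270 CPM in shKDM2B libraries. Empty vector replicate 2 stood above the other controls and still under all shKDM2B libraries (2.84-fold, SE 0.09 on the log2 scale). NPC2, the luminal cholesterol carrier, had 36.6, 39.3 and 36.1 CPM against 103.5, 116.2 and 111.8 CPM (2.96-fold). NPC1, the membrane protein that receives cholesterol from NPC2, had 236.4, 245.0 and 229.3 CPM against 232.6, 232.2 and 244.8 CPM. Its log2 fold change was -0.0020 (SE 0.05), and its groups overlapped; the difference between the 2 cholesterol carriers was not tested. GRN, which encodes progranulin, rose from 200.3 ± 27.2 to 375.2 ± 7.52 CPM. GM2A, the activator that lifts gangliosides from membranes, rose 1.18-fold.

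Membrane proteins held the largest rise of the set. Of 10 tested, 7 were higher, 1 was lower and 2 did not pass (median 0.65 on the log2 scale). Over all tested genes 30.5% were higher and 30.4% lower. LAPTM5, a membrane protein best known from blood cells (ENSG00000162511.8, chr1:30732469-30757820, minus strand), had 22.9, 21.9 and 23.8 CPM in empty vector and 155.0, 165.1 and 162.9 CPM in shKDM2B libraries. The levels were tight within each group and 7.03-fold apart (log2 fold change 2.81, SE 0.06). Of its relatives, LAPTM4A rose 1.46-fold, and LAPTM4B did not pass. LAPTM4B had 173.2, 182.6 and 175.5 CPM against 175.3, 167.3 and 181.8 CPM, with overlapping groups (log2 fold change -0.02, SE 0.05). The differences between the 3 relatives were not tested.

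LAPTM5 and CTSS are typical of leukocytes, and markers of leukocytes and osteoclasts were therefore looked up. Of 16 such genes, 2 passed the low-count filter and both were higher: CALCR (2 to 7 counts against 109 to 161) and CSF1R (8 to 15 counts against 31 to 53). CALCR lay under the filter's level of 0.912 CPM in every empty vector library, and CSF1R in empty vector replicate 1. Both genes thus needed the shKDM2B libraries to pass the filter, and nothing is read from the shared direction of their calls. The summed level of the 16 was 2.33 to 2.57 CPM in empty vector and 15.9 to 16.9 CPM in shKDM2B libraries. Without CALCR and CSF1R it was 0.875 to 0.952 CPM and 1.49 to 2.43 CPM. LYZ, AIF1, TYROBP, SPI1, CD3E, DCSTAMP and OCSTAMP had 0 counts in all 6 libraries. PTPRC had 0, 0 and 1 counts in empty vector and 1, 1 and 4 in shKDM2B libraries, and its groups did not overlap in CPM. FCER1G, ITGAM, CD163 and CD79A had at most 5 counts in any library. CD14 had 1, 3 and 3 counts in empty vector and 8, 8 and 12 in shKDM2B libraries, and its groups did not overlap. ITGAX had 5 to 10 counts in every library, with overlapping groups. None of these genes was tested. None of 7 fibroblast markers passed the filter.

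SORT1, sortilin, a receptor that carries prosaposin and other proteins to the lysosome, had 141.7, 143.3 and 145.8 CPM against 327.1, 326.5 and 341.0 CPM (2.31-fold). LAMP1, a heavily glycosylated protein of the limiting membrane, had 200.1, 198.0 and 202.0 CPM against 383.8, 379.4 and 402.2 CPM (1.94-fold). In both genes the controls agreed within a few CPM and all shKDM2B libraries lay far above them. LAMP2, its paralog with a role in autophagy, rose by 0.58 on the log2 scale, the tetraspanin CD63 rose 1.83-fold, and SCARB2, the receptor that brings glucocerebrosidase to the lysosome, rose 1.64-fold. MCOLN1 was the only membrane protein called lower. It had 23.5, 20.5 and 23.8 CPM against 19.7, 16.3 and 18.9 CPM (log2 fold change -0.31, SE 0.10). The gap between the lowest control and the highest shKDM2B library was under 1 CPM, and the call was lost without empty vector replicate 3 or shKDM2B replicate 2 (edgeR adjusted p = 0.0571 and 0.0856).

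**Figure D3:**
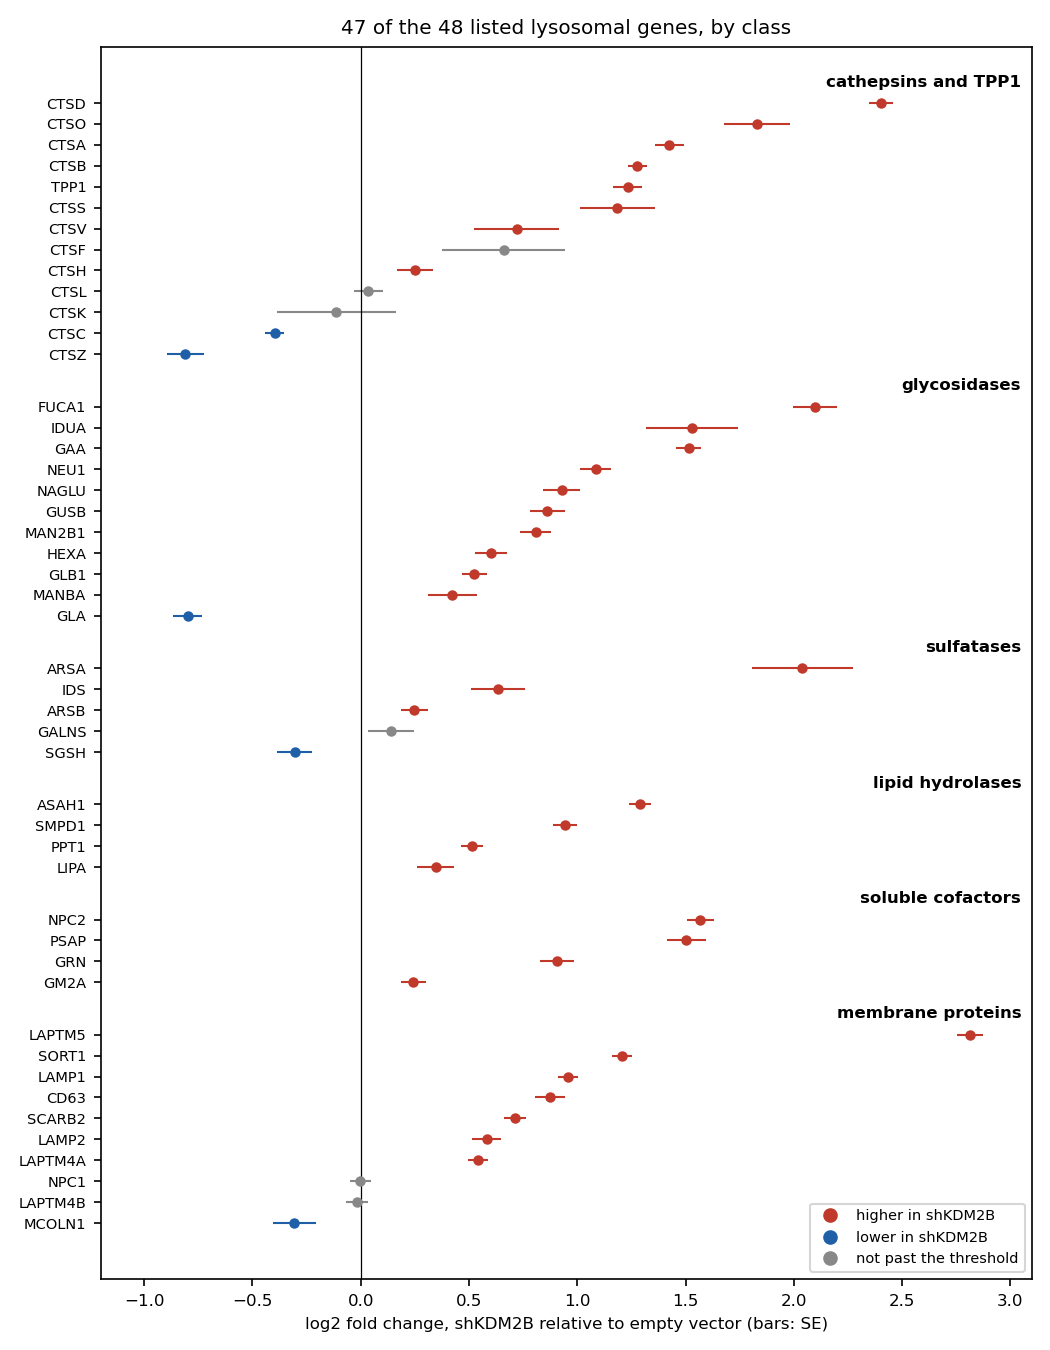
Log2 fold change of each of the 47 tested genes (x axis, shKDM2B relative to empty vector, bars show the SE), grouped by class and coloured by call. The lipid hydrolases and soluble cofactors lie wholly to the right of 0, and the 5 genes called lower fall in 4 classes.

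**Figure D4:**
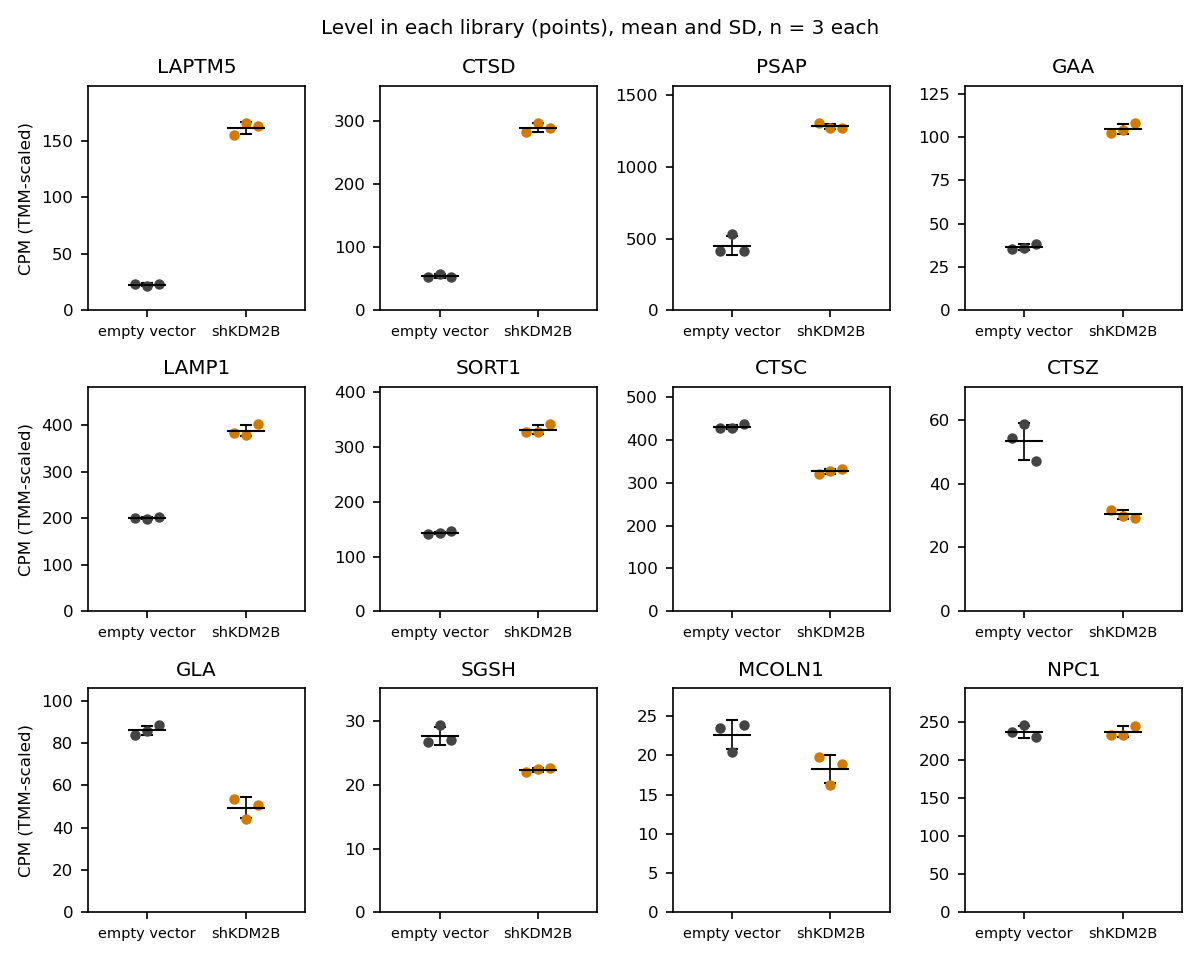
TMM-scaled CPM in each library (points), with mean and SD (n = 3 per group), for 6 genes that were higher, the 5 that were lower and NPC1. LAPTM5 rises from 22.9 to 161.0 CPM on average, while NPC1 stays at 236.9 and 236.5 CPM.

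The rest of the lysosomal system was described from further lists, which were also chosen with earlier results of these data known. Of 29 other lysosomal hydrolases tested, 19 were higher, 6 were lower and 4 did not pass (median 0.33 on the log2 scale), beside 30.5% higher and 30.4% lower over all tested genes. LGMN, the asparaginyl endopeptidase that processes several cathepsins, rose from 79.7 to 189.0 CPM on average (2.37-fold, adjusted p = 1.65e-08). SMPDL3A, a phosphodiesterase related to SMPD1, had a log2 fold change of 1.28 (adjusted p = 4.04e-07). The largest change in this list was a decrease. MAN2B2, a mannosidase related to MAN2B1, had 449, 431 and 563 counts against 82, 86 and 83 counts (log2 fold change -2.61, SE 0.12, adjusted p = 2.70e-10). All of its shKDM2B libraries lay far under the controls, whereas MAN2B1 rose 1.75-fold. PLBD2, a phospholipase B-like protein, was 2.77-fold lower (adjusted p = 5.10e-09).

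Of 28 other lysosomal membrane proteins tested, 16 were higher, 3 were lower and 9 did not pass (median 0.30 on the log2 scale). Beside these counts, 30.5% of all tested genes were higher, 30.4% lower and 60.9% called either way. The nucleoside carrier SLC29A3 rose 3.79-fold (adjusted p = 3.85e-09), and GPR137B and the peptide carrier ABCB9 had log2 fold changes of 1.58 and 1.37. MCOLN3, a channel of the MCOLN1 family, had 43, 41 and 47 counts in empty vector and 101, 134 and 166 counts in shKDM2B libraries (log2 fold change 1.51, SE 0.15). The third channel, MCOLN2, chosen after its values were seen, fell by 0.39 (SE 0.08). Thus 2 of the 3 mucolipin channels were lower and 1 was higher; differences between them were not tested.

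V-ATPase subunits were higher for 15 of 20 tested, lower for 2 and without a call for 3 (median 0.50 on the log2 scale). The shares over all tested genes were 30.5% higher, 30.4% lower and 60.9% either way. The accessory subunit ATP6AP1 rose 2.18-fold (adjusted p = 9.89e-10), and ATP6V1B2 of the cytosolic domain and ATP6V0B of the membrane domain had log2 fold changes of 1.03 and 0.98. ATP6V0E2, of the membrane domain, fell by 0.76.

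Genes of mannose 6-phosphate tagging, hydrolase maturation and sorting were higher for 7 of 18 tested, lower for 2 and without a call for 9 (median 0.15 on the log2 scale). Over all tested genes 30.5% were higher, 30.4% lower and 60.9% called either way. Nothing is read from these counts, since the list was chosen with earlier results known. IGF2R, the large mannose 6-phosphate receptor, had 2596, 2689 and 3204 counts against 5301, 5663 and 7947 counts (log2 fold change 1.05, SE 0.05). CLN8 and MCFD2, proteins of the endoplasmic reticulum exit route, had log2 fold changes of 1.10 and 0.89, and SUMF1, which activates all sulfatases, of 0.72. No call was made for the small receptor M6PR and the tagging enzyme GNPTAB, picked with their values in view, with log2 fold changes of -0.10 (SE 0.05) and 0.0088 (SE 0.05).

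**Figure D5:**
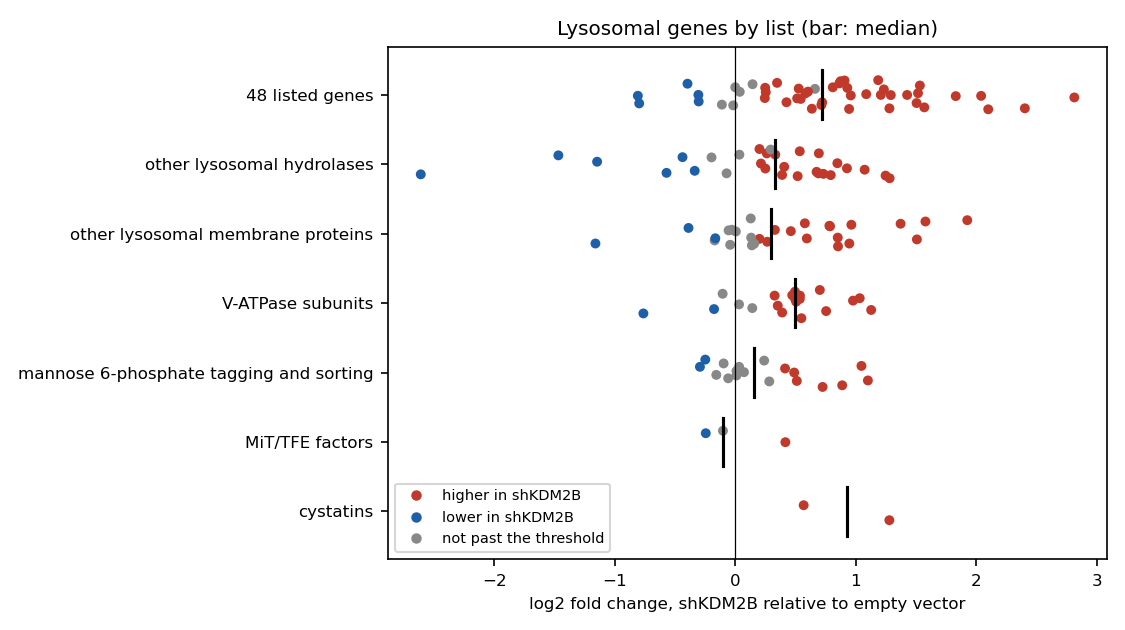
Log2 fold change of each tested gene (points, coloured by call) in the listed set (47 of 48 genes) and in 6 further lists, with the median of each as a bar. Medians run from -0.10 for the MiT/TFE list (3 genes tested) to 0.92 for the cystatins (2 tested), with 0.72 for the listed set. The 3 tested genes of the MiT/TFE list are TFE3, MITF and ZKSCAN3, the last described as a repressor.

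None of the tested factors that bind CLEAR elements was called higher at the transcript level. TFE3 fell from 71.7 ± 0.367 to 60.4 ± 2.27 CPM (SD, n = 3 each; log2 fold change -0.25, adjusted p = 1.21e-03). MITF had a log2 fold change of -0.10 (SE 0.07) and did not pass, but without empty vector replicate 2 it was called lower (-0.19, edgeR adjusted p = 9.28e-04). TFEB had 7 to 12 counts and TFEC at most 6 in any library, and neither was tested. ZKSCAN3, described as a repressor of lysosomal genes, rose by 0.41 on the log2 scale (adjusted p = 2.35e-03). Against a 1.2-fold change neither TFE3 nor ZKSCAN3 passed (edgeR adjusted p = 0.548 and 0.0572). Protein level and nuclear entry of these factors, through which they are mainly controlled, were not measured.

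Cystatins inhibit the cysteine cathepsins. CST3, the secreted cystatin C, had 293, 406 and 406 counts in empty vector and 818, 855 and 1212 counts in shKDM2B libraries (log2 fold change 1.28, SE 0.09, adjusted p = 5.01e-08). The cytosolic CSTB rose by 0.57 (adjusted p = 3.02e-03). For both inhibitors the shKDM2B libraries lay above the controls. CST1, CST2, CST4, CST5, CST6, CST7 and CSTA did not pass the low-count filter, with at most 18 counts in any library.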

How the data were processed

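RNA sequencing of 6 libraries (3 empty vector, 3 shKDM2B) was analysed from the raw counts per gene that the authors deposited, which are not normalized. The tools Trim Galore, STAR and featureCounts and the build GRCh38 are recorded, per the submitters' processing notes, as are limma, edgeR and DESeq2. The sources used here do not give versions, the strand setting or the handling of shared reads. The 48 genes and all lists were chosen with earlier results of these data known.

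Genes with enough counts (filterByExpr, minimum count 10, minimum total 15) were scaled by TMM and tested with edgeR 4.0.16 (robust quasi-likelihood fit, Benjamini-Hochberg adjustment over 14071 genes, threshold 0.05) in R 4.3.3, after a test on simulated data. All members were described. In further lists the 4 genes with the largest absolute log2 fold change among those called, with a mean of at least 5 CPM, were named, and every gene of the short lists. CPM are TMM-scaled; coordinates and lengths come from GENCODE 29, and promoters from RefSeq. Alternatives were DESeq2 1.42.0, limma-voom 3.58.1, other scalings and filters, a replicate term, a test against a 1.2-fold change, and leaving out each library. Libraries of a group differed beyond counting noise (chi-square per degree of freedom 2.01 to 10.3).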

Additional observations from a re-analysis of the deposited data

How the results depend on the processing

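With other scalings, filters or tools, 35 or 36 genes of the set were higher and 5 lower. The genes tested numbered 47, or 48 without the low-count filter. Against a 1.2-fold change, 5458 of all tested genes were called, and 31 of the 47 were higher and 3 lower: CTSH, MANBA, ARSB, LIPA, GM2A, SGSH and MCOLN1 no longer passed, nor did TFE3 and ZKSCAN3 of the further lists. Leaving out each library in turn gave 7566 to 9128 genes called, 35 to 37 of the 47 higher, 4 to 5 lower and a median log2 fold change of 0.70 to 0.84, the highest values being 0.84 without empty vector replicate 2 and 0.82 without shKDM2B replicate 3.

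Only genes that did not pass changed sign. NPC1 was at 0.0007 with limma-voom. Over the fits that each left out 1 library, NPC1 ranged from -0.032 to 0.015 (above 0 without empty vector replicate 2 or shKDM2B replicate 1 or 2), CTSK from -0.29 to 0.045 (above 0 without empty vector replicate 1 or shKDM2B replicate 3), CTSL from -0.017 to 0.11 (below 0 without empty vector replicate 1 or 3) and LAPTM4B from -0.048 to 0.016 (above 0 without shKDM2B replicate 2). The cause was not tested.

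With the replicate number as a block, 8479 of all tested genes were called, and 36 of the 47 were higher and 5 lower, with a median of 0.73. Same-numbered libraries correlated at 0.118, -0.0258 and 0.0751 in their deviations from the group means, and not every library correlated best with its own number, so the numbers were not taken as a pairing. With 10190149 to 15737951 counts per library, depth limits what can be said of CLN3, TFEB, ARSA, CTSK and CTSF. For CLN3, reads in the shared exon stretch may also have been lost, since their handling is not given.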
